A study of Homo sapiens with 10 samples.

Results

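The 10 transcription factors of T-cell development and T-cell leukaemia, MYB, BCL11B, GATA3, TAL1, LMO2, LYL1, NOTCH1, TCF7, RUNX1 and IKZF1, were followed in MOLT-4 cells over 6 h of treatment with MABL, an antibody against the surface protein CD47. They were chosen by name, with earlier results of these data known. Every probe set that carries 1 of these 10 symbols in the platform annotation was taken. This gave 27 of the 22283 probe sets on the array, for 9 of the 10 genes. TCF7 was not analysed here, because no probe set carried its symbol in the annotation used. MOLT-4 is an established human line of T-cell acute lymphoblastic leukaemia, and its RNA was hybridised to 10 Affymetrix arrays. Their probe sets are sets of short DNA probes, most of which are annotated to 1 gene and some to several. The groups were 0 h, 0.5 h, 1 h, 3 h and 6 h, with 2 arrays each, and per the labels all of them, 0 h included, carried 10 ug/mL MABL and 50 ug/mL of GAM, an agent known here by that abbreviation alone. Cells kept in culture without antibody were not analysed here, so antibody, GAM, culture time and handling cannot be told apart. Nothing in the labels says that the replicates were separate cultures, so the p-values measure the spread between these arrays only, which may be technical. In a whole-culture sample, fewer cells with a transcript and less of it per cell cannot be told apart.

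T-cell identity is set in the thymus by a small network of transcription factors. NOTCH1, a receptor whose cleaved inner part enters the nucleus, starts the programme, and GATA3, TCF7 and BCL11B commit the cell to it, while IKZF1 restrains proliferation and RUNX1 and MYB act through many stages. T-cell leukaemias reuse this network. TAL1, a basic helix-loop-helix factor, is switched on out of place in many of them and binds DNA with an E protein such as TCF3 in a complex that can hold LMO2, GATA3, RUNX1 and MYB. LYL1 is its close relative.

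Levels are square roots of the deposited scores, read as log2 expression. This reading comes from the range of the scores and is not stated by the authors, so every size given as a log2 change depends on it. Probe sets with at least 2 arrays at log2 5 or higher were tested, which were 4276 of all. A probe set was called at a limma adjusted p under 0.05, and every adjusted p below is limma's.

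For MYB and BCL11B, the factors with the lowest changes at 1 h, RefSeq gives 1 start each, and the 250 bases before that start are shown in GRCh38.p14, from 5′ to 3′ on the gene's strand. MYB lies at chr6:135181058-135181307 on the plus strand and BCL11B at chr14:99272198-99272447 on the minus strand. Capitals mark letters that match 1 of 7 short motifs of the factors' own families, on either strand: AACNG for MYB, AGATAA for GATA factors, CAGNTG for helix-loop-helix factors, TGTGGT for RUNX1, TGGGAA for IKZF1, GTGGGAA for RBPJ, the DNA-binding partner of NOTCH1, and CTTTGA for TCF7.
MYB: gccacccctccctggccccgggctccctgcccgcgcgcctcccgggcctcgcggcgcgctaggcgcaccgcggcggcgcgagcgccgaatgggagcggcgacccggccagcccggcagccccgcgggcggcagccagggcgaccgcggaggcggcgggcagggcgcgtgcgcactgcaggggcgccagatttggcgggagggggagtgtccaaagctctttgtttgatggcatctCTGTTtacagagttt
BCL11B: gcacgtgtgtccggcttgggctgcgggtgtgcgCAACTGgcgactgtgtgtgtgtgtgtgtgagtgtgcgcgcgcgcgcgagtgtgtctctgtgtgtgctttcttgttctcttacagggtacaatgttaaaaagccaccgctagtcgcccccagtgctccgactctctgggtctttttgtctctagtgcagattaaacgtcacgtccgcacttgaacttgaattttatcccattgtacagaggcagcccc
The MYB window held 1 match, to the MYB motif. In the BCL11B window, 1 stretch matched the MYB motif and the helix-loop-helix motif at once, since these letters overlap. Such matches are common: among 35114 windows of this length, 70.6% held the MYB motif, 42.5% the helix-loop-helix motif, 9.17% the GATA motif, 11% the RUNX1 motif, 20.8% that of IKZF1, 5.43% that of RBPJ and 11.2% that of TCF7. A match describes the letters only. GATA3 has 6 windows in the table, and which start these cells use was not analysed here, so none is shown.

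Of the 27 probe sets, 8 passed the filter, and they stood for 7 genes: MYB, BCL11B, GATA3, TAL1, NOTCH1, IKZF1 (2 probe sets) and RUNX1. All 8 lay above log2 5 on each of the 10 arrays, so none of them passed through 1 time alone. The RUNX1 probe set is annotated to RUNX1 together with 2 long non-coding RNA loci, LOC101928269 and LOC100506403, so its values cannot be given to RUNX1 alone. LMO2, the bridging protein of the TAL1 complex, and LYL1 had 1 probe set each, and both lay below the filter on all arrays. LMO2 stood at 3.71 to 3.80 over the 10 arrays and LYL1 at 4.26 to 4.32. At this level of signal a change cannot be read, so nothing is drawn from how little they varied.

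The remaining 17 probe sets below the filter belong to genes that have another probe set above it: 10 for RUNX1, 2 each for GATA3, TAL1 and IKZF1, and 1 for MYB. The means of all 19 probe sets below the filter ran from 2.16 to 4.28, and the highest single array was 4.32. Their median range over the 10 arrays was 0.14, against 1.19 for the tested probe sets, but at this level of signal a change cannot be read. In level, probe sets of 1 gene disagreed: GATA3 had a mean of 7.70 on the tested probe set and of 3.85 and 2.93 on the other pair. When all probe sets were fitted without a filter, limma called 0 of these 19 in the 5 comparisons described below (lowest adjusted p 0.191). Few of the 22215 probe sets were called in that fit: 307, 871, 680 and 676 at 0.5 h, 1 h, 3 h and 6 h. Between 6 h and 1 h 482 were. The 0 of 19 is near such shares, so nothing is drawn from it.

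Markers put these levels beside those of genes that a T-cell line should lack. None of 7 probe sets for B-lineage genes, 10 for myeloid genes and 15 for erythroid or megakaryocyte genes passed the filter, and by gene the means reached at most 3.71 (CD79B), 3.16 (LYZ) and 4.21 (EPOR). The means of LMO2 (3.75) and LYL1 (4.28) lay in or just above that span. A level below the filter does not show that a gene is silent, since probe sets differ in how well they bind. Of 14 T-lineage markers, 9 were above the filter, among them CD3D (mean 12.42) and CD3G (8.53) of the T-cell receptor complex, the kinase LCK (10.40) and CD1A (6.66), a marker of immature thymocytes. CD4 (2.99), CD8A (3.19), CD2 (4.15), CD7 (3.71) and the recombinase gene RAG1 (3.93) were not.

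**Figure D1:**
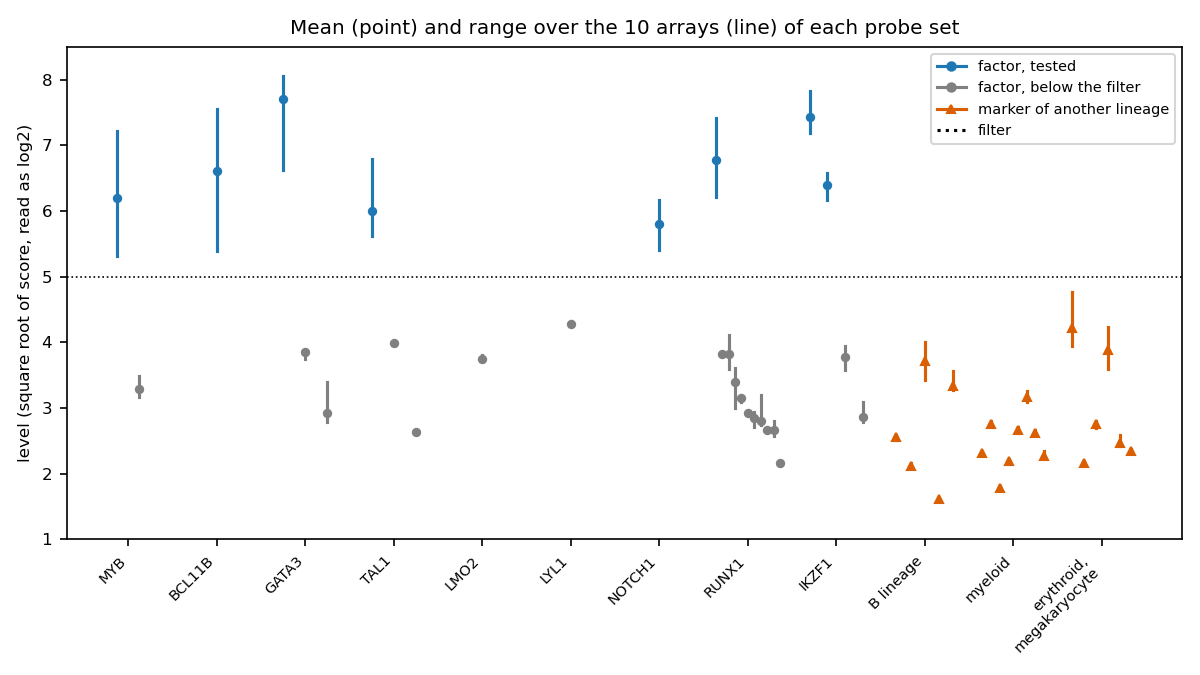
Mean level (point) and range over the 10 arrays (line) of each probe set of the 9 factors on the array and of markers of other lineages (1 probe set per gene), as the square root of the score read as log2; the dotted line is the filter at 5. The 8 tested probe sets stay above the line on each array, while LMO2, LYL1 and all markers of other lineages stay below it.

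Measures of the arrays moved with time as well. The controls that read 18S ribosomal RNA had a mean of 9.03 ± 0.88 at 0 h (SD, n = 2 at each time), then 10.44 ± 0.34 by 0.5 h, 10.68 ± 0.64 by 1 h, 11.20 ± 0.65 by 3 h and 11.67 ± 0.49 by 6 h. The median level of the tested probe sets on an array was lower than at 0 h by 0.13, 0.29, 0.31 and 0.25 at the 4 later times, and a change taken relative to it is higher by that amount. Calls that depend on this are given with equal array medians too. The median change over probe sets was smaller, at 0.01, -0.03, -0.15 and -0.14. The spike-in controls were higher than at 0 h by 0.27, 0.25, 0.76 and 0.63 at these times. As covariates, the 18S and spike-in levels thus go in part with time, and a call lost in such a fit cannot tell them apart from time. The median SE at 3 h against 0 h was 0.148 without a covariate, 0.272 with the 18S level and 0.293 with the spike-in level.

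GATA3, a zinc finger factor of T-cell commitment, fell and came back within the 6 h. Its levels in replicates 1 and 2 were 8.05 and 7.99 at 0 h, 8.02 and 7.98 at 0.5 h, 7.15 and 6.62 at 1 h, 7.64 and 7.67 at 3 h and 7.93 and 7.97 at 6 h. Both 1 h arrays lay below all 8 others, and those of 0.5 h were level with 0 h. At 1 h the level was 6.89 ± 0.37, against 8.02 ± 0.046 at 0 h, a change of -1.13 (SE 0.158, adjusted p = 0.00165), which on this reading leaves 45.6% of the 0 h signal. The change was -0.85 with equal array medians (adjusted p = 0.00156). The call was kept without any 1 of the 10 arrays, with a highest adjusted p of 0.0183. With the 18S level as a covariate the change was -1.29 and was not called (adjusted p = 0.0512).

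The return of GATA3 was called too. At 6 h it was higher than at 1 h by 1.06 (SE 0.158, adjusted p = 0.0027), by 1.03 with equal array medians (adjusted p = 0.000413), and in every fit that left out 1 array (adjusted p up to 0.0196). Compared with 0 h, 6 h differed by -0.07, with a 95% interval of -0.43 to 0.30 (adjusted p = 0.795), so a remaining difference of up to that size is not excluded. Part of the return was seen by 3 h, which was higher than 1 h by 0.76 (adjusted p = 0.0412; 3.77% of all tested probe sets were called), a comparison added after the values were seen; of the 10 fits without 1 array, only that without 1 h replicate 1 kept the call. The fall at 1 h and the rise after it rest on the same pair of 1 h arrays.

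MYB, a factor of blood progenitors and a partner of TAL1, was lower early. Its levels in replicates 1 and 2 were 7.23 and 7.04 at 0 h, 6.03 and 5.80 at 0.5 h, 5.60 and 5.36 at 1 h, 6.50 and 5.31 at 3 h and 6.05 and 7.09 at 6 h. All arrays of 0.5 h, 1 h and 3 h lay below both 0 h arrays, while the replicates of 3 h and of 6 h stood more than 1 log2 unit apart and overlapped with other times. At 1 h the level was 5.48 ± 0.17, against 7.13 ± 0.13 at 0 h, and MYB fell by 1.66 on the log2 scale (SE 0.413, adjusted p = 0.0189; -1.37 with equal array medians, adjusted p = 0.00519). The signal was 31.7% of that at 0 h. Leaving out any 1 of its 4 arrays ended this call (adjusted p up to 0.107), as did testing with no filter (0.150) and taking the 18S level (-0.84, adjusted p = 0.483) or the spike-in level (0.0647) as a covariate.

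At the other times MYB was not called. It differed from 0 h by -1.22 at 0.5 h (adjusted p = 0.085), by -1.23 at 3 h (0.0577) and by -0.56 at 6 h (0.361). The differences at 0.5 h (-1.09, adjusted p = 0.0272) and 3 h (-0.92, 0.0374) were called with equal array medians. At 3 h the difference was -1.82 without 3 h replicate 1 (adjusted p = 0.0122) and -0.63 without 3 h replicate 2 (0.294), and it was called too without either 6 h array (0.0392) and under a filter of log2 7 (0.0286). That of 6 h came to -0.04 when 6 h replicate 1 was left out and to -1.08 when replicate 2 was, neither called. Without either 3 h array (0.0336) or under a filter of log2 7 (0.0459) the 0.5 h difference was called. From 1 h to 6 h MYB was higher by 1.10 (SE 0.413, adjusted p = 0.0927), which was called with equal array medians (1.06, adjusted p = 0.0242) and without either 3 h array (adjusted p = 0.0388). Without 6 h replicate 1 the difference was 1.62 (adjusted p = 0.0417) and without 6 h replicate 2 it was 0.58 (0.452). It was also called under a filter of log2 7 (0.0471) and when the 18S level was a covariate (1.58, adjusted p = 0.0439). The return of MYB thus passed or missed the threshold with the scaling and with single arrays.

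BCL11B, a zinc finger repressor that seals T-cell commitment, was lower at 1 h and 3 h. In replicates 1 and 2 it stood at 7.55 and 7.21 at 0 h, 7.16 and 6.49 at 0.5 h, 6.14 and 5.91 at 1 h, 6.41 and 5.39 at 3 h and 6.69 and 7.17 at 6 h. All arrays of 1 h and 3 h were below those of 0 h, and also below those of 0.5 h and 6 h. At 1 h the level was 6.02 ± 0.16, against 7.38 ± 0.24 at 0 h, and BCL11B fell by 1.36 (SE 0.353, adjusted p = 0.0224; -1.07 with equal array medians, adjusted p = 0.00747), to 39.0% of the 0 h signal. At 3 h it fell by 1.49 (adjusted p = 0.0169; -1.17 with equal array medians, adjusted p = 0.00743). Leaving out any 1 of its 4 arrays ended the 1 h call (adjusted p up to 0.140), and the 3 h call ended without 0 h replicate 1 (0.110) and without 3 h replicate 2 (-0.98, adjusted p = 0.0872). Neither held with no filter (0.165 and 0.124) or when the 18S level was a covariate, at -0.59 for 1 h and -0.48 for 3 h (adjusted p = 0.563 and 0.813), or with the spike-in level (0.0953 and 0.617).

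At 6 h BCL11B differed from 0 h by -0.45, with a 95% interval of -1.27 to 0.36 (adjusted p = 0.388). It was higher at 6 h than at 1 h by 0.90 (SE 0.353, adjusted p = 0.103). This difference was called with equal array medians (0.87, adjusted p = 0.0277) and when quantile normalization was repeated (0.87, adjusted p = 0.0473). It was also called when the 18S level was a covariate (1.36, adjusted p = 0.0356). It was not called with no filter, under a filter of log2 7 or with the spike-in level as a covariate. Without 1 array at a time the difference ran from 0.66 to 1.15.

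**Figure D2:**
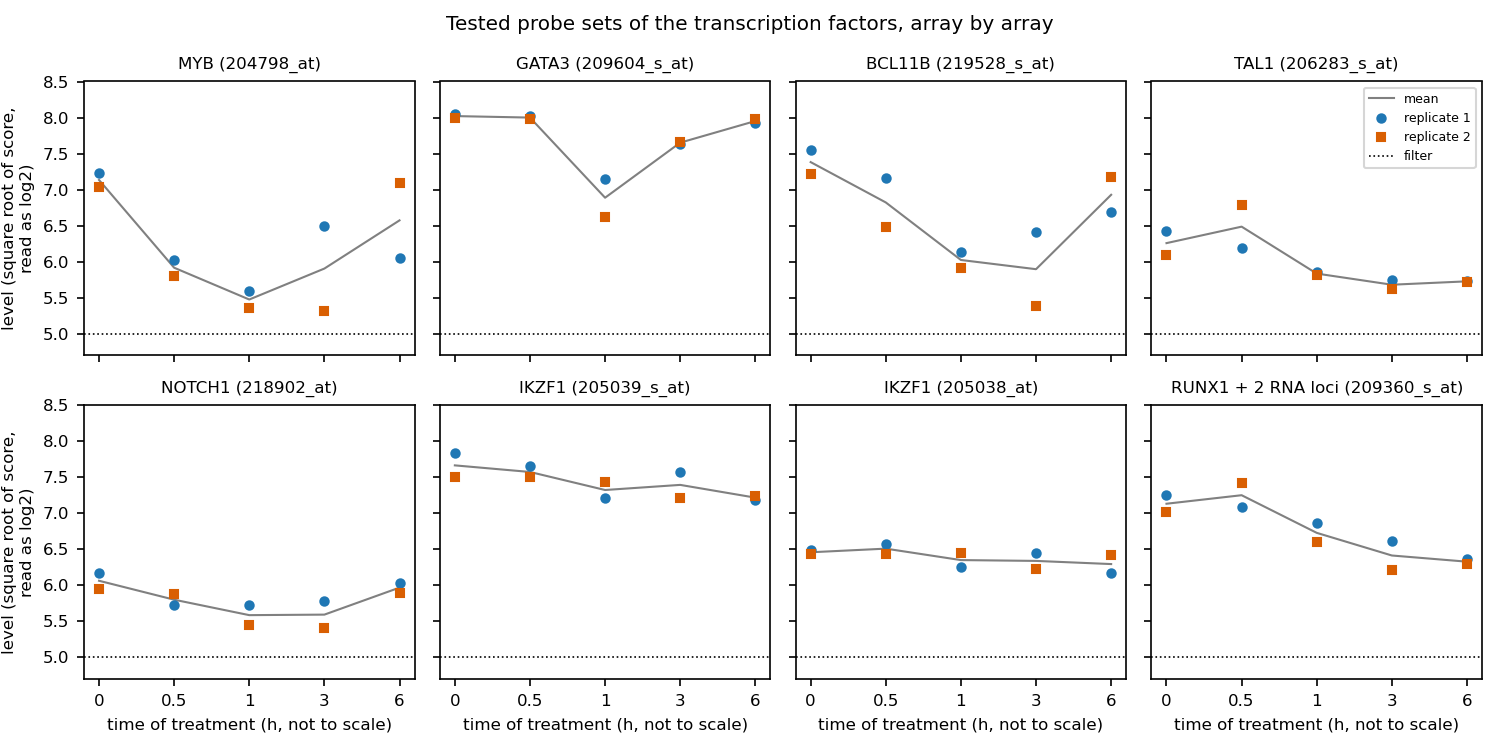
Level of each tested probe set on each array (points) and mean of the pair (line) at the 5 times, as the square root of the score read as log2; the dotted line is the filter at 5. GATA3 dips at 1 h and is back near 8 at 6 h, BCL11B dips at 1 h and 3 h, and the replicates of MYB part at 3 h and 6 h.

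The RUNX1 probe set, shared with the 2 RNA loci, went down late. RUNX1 is the DNA-binding subunit of core binding factor. The levels in replicates 1 and 2 were 7.25 and 7.01 at 0 h, 7.08 and 7.42 at 0.5 h, 6.86 and 6.60 at 1 h, 6.61 and 6.21 at 3 h and 6.36 and 6.30 at 6 h. The arrays of 3 h and 6 h lay below all of 0 h and 0.5 h. At 6 h the level was 6.33 ± 0.044, against 7.13 ± 0.17 at 0 h, and it fell by 0.80 (SE 0.180, adjusted p = 0.0144; -0.56 with equal array medians, adjusted p = 0.0293). At 3 h it fell by 0.72 (adjusted p = 0.0206), which was not called with equal array medians (-0.41, adjusted p = 0.066). Without 0 h replicate 1 neither was called (adjusted p = 0.131 at 3 h and 0.0983 at 6 h), nor with no filter (0.112 and 0.0887), with the 18S level (0.568 and 0.625) or with the spike-in level (0.348 and 0.209). The 3 h call was lost without 3 h replicate 2 (0.119) and when quantile normalization was repeated (0.0594), and the 6 h call without either 6 h array (0.0611 and 0.0588). From 1 h to 6 h the difference was -0.40 (adjusted p = 0.15).

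TAL1, the leukaemia factor of the network, was read by 1 probe set above the filter, at 6.42 and 6.09 at 0 h, 6.18 and 6.79 at 0.5 h, 5.85 and 5.82 at 1 h, 5.74 and 5.62 at 3 h and 5.73 and 5.72 at 6 h. The 6 arrays of the last 3 times all lay below the 4 earlier ones. No single time was called against 0 h: the differences were -0.42 at 1 h (adjusted p = 0.153), -0.58 at 3 h (0.0576) and -0.53 at 6 h (0.0797). Over all times together the F test called it (adjusted p = 0.0325), but not with equal array medians (0.0704). That call was kept in 3 of the 10 fits without 1 array (adjusted p up to 0.0714): without 0 h replicate 2 and without either 0.5 h array. Without either 0.5 h array the differences at 3 h and 6 h were called (adjusted p = 0.0193 and 0.0275). At 6 h against 1 h TAL1 differed by -0.11, with a 95% interval of -0.55 to 0.34.

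NOTCH1 stood at 6.18 and 5.95 at 0 h, 5.73 and 5.88 at 0.5 h, 5.73 and 5.45 at 1 h, 5.78 and 5.41 at 3 h and 6.04 and 5.90 at 6 h. The arrays of the 3 middle times lay below both of 0 h, and those of 6 h overlapped with 0 h. The differences from 0 h were -0.48 at 1 h (adjusted p = 0.0608) and -0.47 at 3 h (0.0629), and -0.09 at 6 h, with an interval of -0.47 to 0.28. None was called, although with the replicate block, which uses the replicate numbers of the labels, those of 1 h and 3 h were (adjusted p = 0.0404 and 0.0415). The 1 h difference was also called without either 3 h array (0.0426), and that of 3 h without 3 h replicate 1 (-0.65, adjusted p = 0.0303). They were -0.19 and -0.16 and not called with equal array medians (adjusted p = 0.289 and 0.4).

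IKZF1, the Ikaros zinc finger factor, had 2 probe sets above the filter, which ran from 7.19 to 7.83 and from 6.18 to 6.58 over the 10 arrays. Neither was called at any time or by the F test. At 1 h the brighter one differed from 0 h by -0.34 (95% interval -0.72 to 0.04) and the other by -0.11 (-0.41 to 0.20). At 6 h they differed by -0.45 (-0.83 to -0.07, adjusted p = 0.0802) and by -0.16 (-0.47 to 0.14). The intervals of both probe sets leave out a change of 1 log2 unit in either direction at each of these times.

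Counted over the 8 tested probe sets, 0 were called at 0.5 h, 3 were lower and 0 higher at 1 h (MYB, BCL11B and GATA3), 2 lower at 3 h (BCL11B and the RUNX1 probe set) and 1 lower at 6 h (the RUNX1 probe set). Over all tested probe sets 17.0% were called at 0.5 h (15.1% lower, 1.92% higher), 28.4% at 1 h (24.2% lower, 4.14% higher), 28.9% at 3 h (26.4% lower, 2.53% higher) and 25.7% at 6 h (21.6% lower, 4.07% higher). At 6 h against 1 h 1 of 8 was called, GATA3, against 23.9% of all (11.7% lower, 12.2% higher). The F test called 4 of 8 (BCL11B, GATA3, TAL1 and the RUNX1 probe set), against 39.6% of all. Without 1 array at a time, GATA3 and the RUNX1 probe set kept that call in 10 of 10 fits, BCL11B in 4 (adjusted p up to 0.126) and TAL1 in 3. With 8 probe sets, whether these shares differ from those of the whole array was not tested. The 0 at 0.5 h is by limma, and 1 of 8, MYB, had an unadjusted p under 0.05 there (0.0184). Over all tested probe sets, 1269 of 4276 had such a p at 0.5 h.

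Under equal array medians more probe sets rose than fell over the whole array at 1 h and 3 h. Of the factors, 1 of 8 was lower at 0.5 h (MYB), against 22.2% of all called (15.3% lower, 6.9% higher). At 1 h 3 of 8 were lower (MYB, BCL11B and GATA3) and 0 higher, against 52.0% of all called (19.5% lower, 32.5% higher). At 3 h 2 of 8 were lower (BCL11B and MYB), against 40.9% (17.8% lower, 23.1% higher). At 6 h 1 of 8 was lower (the RUNX1 probe set), against 28.4% (14.1% lower, 14.3% higher). At 6 h against 1 h 3 of 8 were higher (MYB, BCL11B and GATA3), against 30.5% (16.1% lower, 14.3% higher). The F test called 4 of 8, against 52.2%. These were BCL11B, GATA3, the RUNX1 probe set and MYB (adjusted p = 0.0159, against 0.0602 as deposited), while TAL1 was not called.

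The median change of the 8 was -0.45 at 1 h, where that of all tested probe sets was -0.03, and -0.45 at 6 h, where it was -0.14. On the scale of equal array medians these were -0.16 and 0.26 at 1 h and -0.20 and 0.11 at 6 h. By the submitters' own rule, both replicates under 0.5 times the geometric mean of 0 h, MYB passed at 0.5 h and 1 h and BCL11B at 1 h, against 5.99% and 11.4% of all tested probe sets at these times. GATA3 missed it at 1 h, with replicates at -0.87 and -1.40.

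Read by the rule of fall and recovery, lower at 1 h than at 0 h, higher at 6 h than at 1 h and not called at 6 h, GATA3 was the 1 factor to qualify, and 8.3% of all tested probe sets did. MYB, GATA3 and BCL11B qualified with equal array medians, against 8.54%, and 0 did when the 18S level was a covariate.

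**Figure D3:**
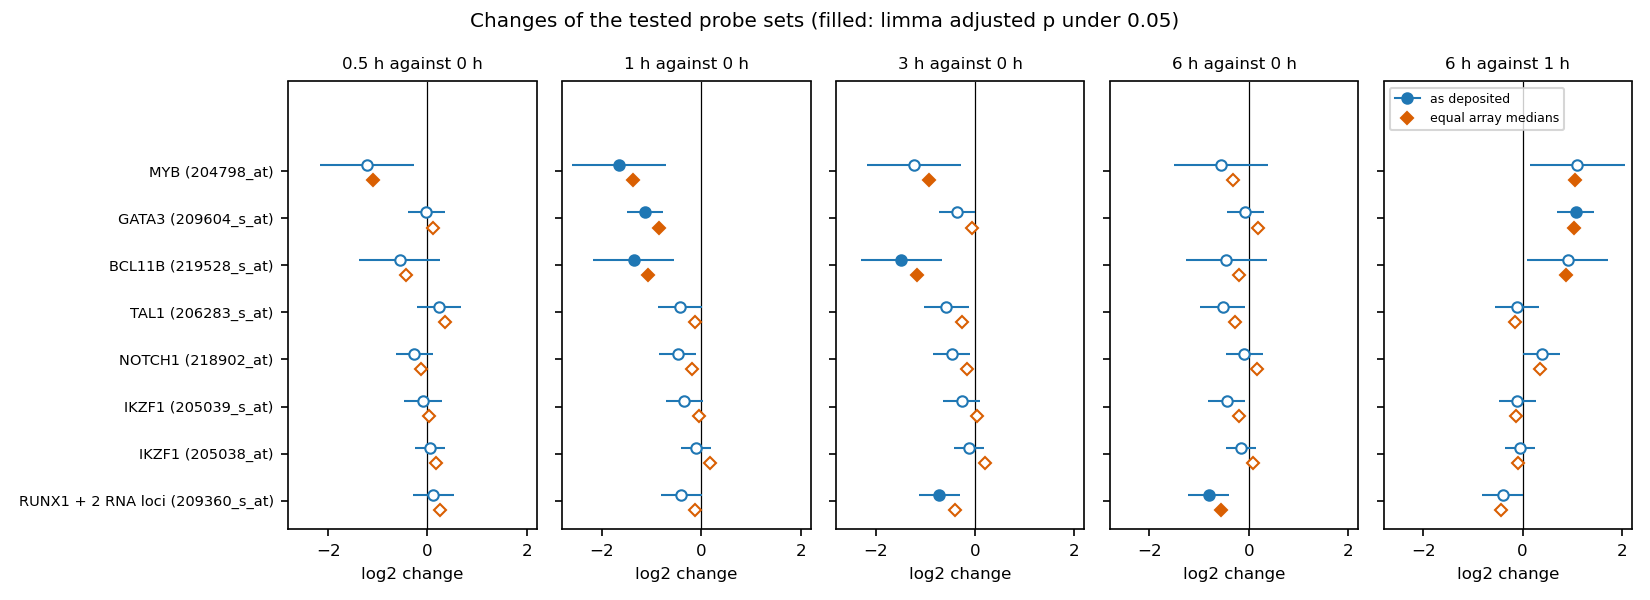
Log2 changes of the 8 tested probe sets in 5 comparisons; circles are values as deposited with 95% intervals from limma, diamonds values with equal array medians, and filled marks passed an adjusted p under 0.05. MYB, GATA3 and BCL11B lie furthest left at 1 h, and the same 3 lie furthest right at 6 h against 1 h.

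The genes whose levels went most closely with each factor over the 10 arrays, less the array median, are a description only, since all share these arrays and times. For MYB they were EID1 (r = 0.962), the cochaperone DNAJA1 (0.951) and the nuclear pore protein NUP205 (0.951). For BCL11B they were VBP1 (0.978), a subunit of prefoldin, RFX5 (0.96) and ST13 (0.922), and for GATA3 CD47 (0.903), the antigen of the antibody, PTP4A2 (0.874) and RPN2 (0.829). For TAL1 and for the RUNX1 probe set FTO, an RNA demethylase, was among the closest 3 (0.877 and 0.925). NOTCH1 was closest to SSB (0.921), and IKZF1 to SLC35F2 (0.855). The genes compared were those with a tested probe set of 1 symbol, so RUNX1, LMO2, LYL1 and TCF7 could not appear. None of the remaining factors was among the closest 3 of another.

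For the lists that follow, the background is that of all tested probe sets: 4.14% higher and 24.2% lower at 1 h with a median change of -0.03, and 4.07% higher and 21.6% lower at 6 h with a median of -0.14. It is 32.5% higher and 19.5% lower at 1 h, and 14.3% higher and 14.1% lower at 6 h, with equal array medians. None of the lists was tested against it.

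Partners of the TAL1 complex went both ways. Of 19 genes in the list 7 were tested, and at 1 h 2 rose and 1 fell, with a median change of -0.21, while at 6 h 1 rose and 3 fell, with a median of -0.47. TCF3, the E protein that pairs with TAL1, rose by 0.55 at 1 h (adjusted p = 0.0446), 1.12 at 3 h (adjusted p = 0.00359) and 0.88 at 6 h (adjusted p = 0.00866). ID1, which blocks E proteins, rose by 2.34 at 1 h and differed from 0 h by 0.09 at 3 h. ID3, of the same family, differed by 0.13 at 1 h and was not called at any time. With equal array medians it was called higher at 1 h (0.42, adjusted p = 0.0254) and 3 h (0.50, adjusted p = 0.0155). The histone deacetylase HDAC2 fell by 1.20 at 1 h. HDAC1 (-0.70), the DNA-bound cofactor SSBP2 (-0.58) and the demethylase KDM1A (-0.50) fell at 6 h, but on equal array medians SSBP2 (-0.33, adjusted p = 0.103) and KDM1A (-0.25, 0.191) were not called. With equal array medians 3 rose and 1 fell at 1 h, and 1 rose and 1 fell at 6 h. LDB1, LMO1 and LMO4 lay below the filter, as LMO2 did.

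Of 31 genes of the Notch pathway 7 were tested. At 1 h 1 rose and 2 fell, with a median change of -0.03, and at 6 h 2 rose and 0 fell, with a median of 0.30. ADAM10, the protease that makes the first activating cut in Notch receptors, was called lower at 0.5 h, 1 h and 3 h. Its mean levels there were 4.61, 4.78 and 4.89, against 6.13 at 0 h, so they lay under log2 5 and the size of the fall cannot be read. It passed the filter through its higher times. At 6 h it was called higher than at 1 h (adjusted p = 0.00985), with a mean of 6.43, and it differed from 0 h by 0.30 (adjusted p = 0.554). PSENEN, a subunit of gamma-secretase, rose by 0.67 at 1 h and 0.69 at 6 h. HES1, a direct Notch target, fell by 0.66 at 0.5 h (adjusted p = 0.00511) and differed by -0.03 at 1 h. With equal array medians it was called higher at 3 h (0.44, adjusted p = 0.0208) and 6 h (0.52, adjusted p = 0.0129). The tested RBPJ probe set passed the filter through its 6 h arrays alone. Its calls, lower at 1 h and higher at 6 h, therefore follow in part from how it was kept. Its mean was 5.07 by 6 h, but those of 0 h (4.60) and 1 h (3.34) lay under log2 5. The sizes of both changes thus cannot be read. Means of another RBPJ probe set, which was not tested, were 4.86 and 4.79 for 0 h and 6 h, also under log2 5. The tested RBPJ probe set is 1 of the 2 that fell at 1 h and 1 of the 2 that rose at 6 h. With equal array medians 2 rose and 2 fell at 1 h, and 4 rose and 0 fell at 6 h.

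Of 18 RUNX and ETS factors 2 were tested. CBFB, the partner subunit of RUNX1 in core binding factor, fell at all 4 later times: -0.81 at 0.5 h, -1.32 at 1 h (SE 0.174, adjusted p = 0.00138) and -1.04 at both 3 h and 6 h (adjusted p = 0.00515 at 6 h). The 6 h change was -0.79 with equal array medians. The difference between 6 h and 1 h was 0.28 (adjusted p = 0.29). ELK1 was not called (0.18 at 1 h). With equal array medians it was called higher at 0.5 h (0.46, adjusted p = 0.0365), 1 h (0.47, 0.0181) and 3 h (0.48, 0.0219).

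Among 37 further T-lineage and leukaemia factors 10 were tested. At 1 h 3 fell and 0 rose, with a median change of -0.52, and at 6 h 3 fell and 1 rose, with a median of -0.52. With equal array medians the counts were 2 and 0 at 1 h and 3 and 2 at 6 h. The histone methyltransferase EZH2 fell at 6 h (-1.23). It was called lower at 1 h too, where its mean of 4.86, against 6.61 at 0 h, lay under log2 5, so the size of that fall cannot be read. The chromatin organiser SATB1 fell at 1 h (-1.23). LEF1, a relative of TCF7, fell by 0.63 at 1 h (adjusted p = 0.019), which was not called with equal array medians (-0.34, adjusted p = 0.0608). MYC, a target of NOTCH1, was not called at 1 h (-0.28) and fell by 1.33 at 6 h (SE 0.107, adjusted p = 0.000498), as did CTNNB1, beta-catenin (-0.99). BCL11A, the paralogue of BCL11B, rose by 0.82 at 6 h (adjusted p = 0.00226) and differed by 0.03 at 1 h.

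**Figure D4:**
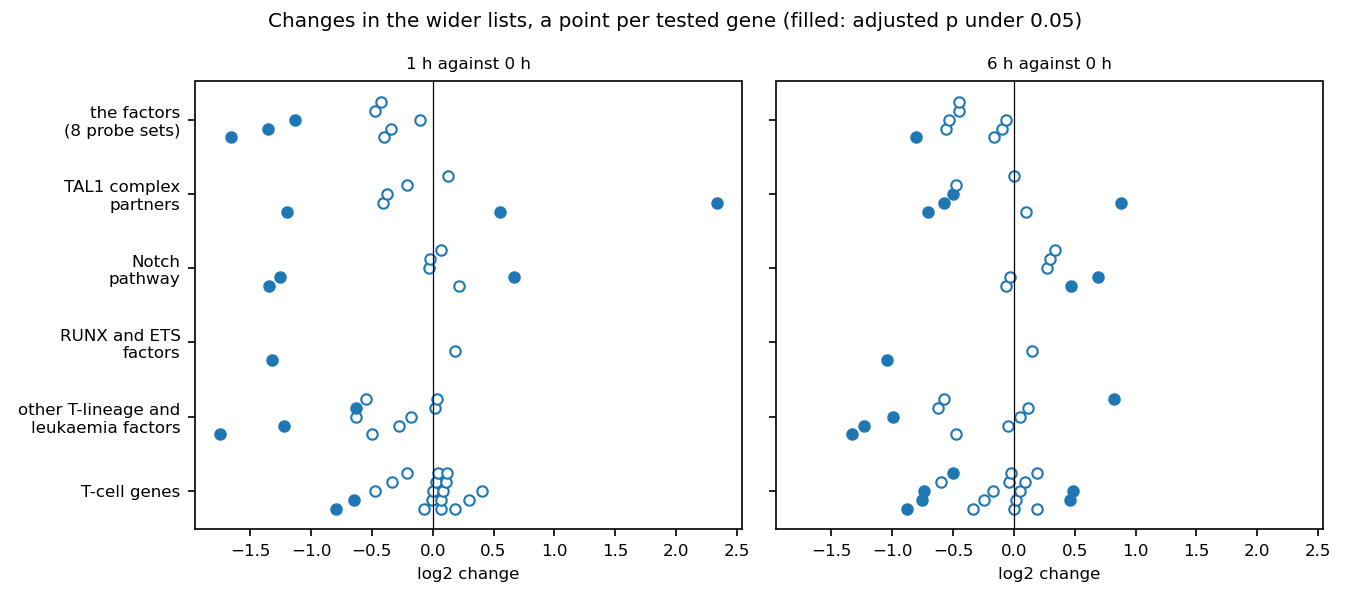
Log2 changes at 1 h and at 6 h against 0 h of the 8 tested probe sets of the factors and of the tested genes of 5 wider lists, 1 point per gene; filled points passed an adjusted p under 0.05. At 1 h the filled points of the factors lie between -1.66 and -1.13, and ID1 lies furthest right at 2.34.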

How the data were processed

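Total RNA of MOLT-4 cells was measured on 10 arrays, 2 at each of 5 times. The deposited values are 1 score per probe set made by the authors with GCRMA, per the submitters' processing notes; its version, the scale and later steps are not given in the sources used here. Scores lay between 1.25e-05 and 238.1 and array medians between 8.161 and 8.564, and their square roots (up to 15.43) were read as log2. The planned log2 test was run on these. Of 22283 probe sets 68 controls were left out, and 4276 of the others (19.2%) had at least 2 arrays at log2 5, a score of 25, and were tested. Symbols came from the platform annotation, updated to RefSeq GRCh38.p14 by gene identifier; 19071 probe sets had 1 symbol, 1043 several and 2169 none. Lists used the brightest tested probe set per gene with 1 symbol. Limma 3.58.1 in R 4.3.3 (lmFit, eBayes) was fitted to all 10 arrays with time as the factor (5 residual degrees of freedom, prior 3.06), with Benjamini-Hochberg adjustment within each comparison over all tested probe sets. The fit was tested on simulated data. The number of arrays limits the precision.

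Every tested probe set of the factors was named. From the lists, up to 4 of the lowest and 3 of the highest called changes at 1 h or 6 h were named, and a fixed set (TCF3, LEF1, CBFB, MYC, PTCRA, RAG1, IL7R, HES1, ID3, CD3D) whatever their values; other names were chosen after their values were seen. Members and lists were chosen with earlier results of these data known. The main fit did not pair arrays by replicate number, and the labels do not say whether same-numbered arrays belong together. Their deviations correlated at -0.231 to 0.147 between times, which cannot decide it. Promoter windows are RefSeq's; 9 of the 10 factors had at least 1.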

Additional observations from a re-analysis of the deposited data

Results flagged for a closer look

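The change of GATA3 from 0 h differed between times: it was -0.07 at 6 h and -1.13 at 1 h, and the test of 6 h against 1 h gave a difference of 1.06 (SE 0.158, limma adjusted p = 0.0027). Both 6 h arrays (7.93 and 7.97) lay above both 1 h arrays (7.15 and 6.62), and 12.2% of all tested probe sets were called higher in this comparison. The 18S level was higher by 2.64 at 6 h and by 1.65 at 1 h than at 0 h.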

How the results depend on the processing

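Of 825 recomputed changes of single factors, 760 kept their side of the threshold, 33 lost a call and 32 gained one, and no called change turned its sign. The main fit called 0, 3, 2 and 1 of 8 at 0.5 h, 1 h, 3 h and 6 h. For 6 h against 1 h it called 1 of 8. Most of the 760 were therefore not called in either fit, so they do not measure how well the calls held. Sizes moved too under the 18S covariate: MYB at 3 h was -0.16 in place of -1.23, and at 6 h MYB (0.74) and BCL11B (0.77) stood above 0, not called. At 0.5 h the count of 0 was 1 of 8 with equal array medians and 1 of 5 with the filter at log2 7. Over the whole array 728 of 4276 were called at 0.5 h in the main fit. With equal array medians 951 were, and with that filter 475 of 2236. At 1 h the 3 called were 1 with no filter, 0 with the 18S level and 1 with the spike-in level as a covariate. At 3 h the 2 called were 1 after renewed quantile normalization, and 0 with no filter, with the 18S level and with the spike-in level. At 6 h the 1 called was 0 in the same 3 fits. Calls over the whole array went down in these fits too. In the main fit 1213, 1236 and 1099 of 4276 probe sets were called at 1 h, 3 h and 6 h. With the 18S level these were 87, 0 and 6, and with the spike-in level 789, 0 and 21. With no filter they were 871, 680 and 676 of 22215. After renewed quantile normalization 1594 of 4276 were called at 3 h. At 6 h against 1 h the 1 called was 3 with equal array medians and with the 18S level. It was 2 after renewed quantile normalization and 2 of 5 with the filter at log2 7. The main fit called 1022 of all 4276 probe sets there. Equal array medians gave 1303, the 18S level 744, renewed quantile normalization 1176 and the filter at log2 7 gave 786 of 2236. The F test's 4 were 1 with no filter, the 18S level or the spike-in level. Its calls over the whole array were 1694 of 4276 in the main fit and 834 of 22215 with no filter. They were 785 with the 18S level and 763 with the spike-in level. Without 1 array at a time these counts ran from 0 to 1 at 0.5 h, from 1 to 4 at 1 h, from 0 to 4 at 3 h, from 0 to 2 at 6 h, from 1 to 3 for 6 h against 1 h and from 2 to 4 for the F test. With the replicate block the count was 4 at 1 h and 3 at 3 h, where 1197 and 1247 of all 4276 were called. No other count of the factors moved with that block. The cause was not tested, but with no filter 22215 probe sets were tested in place of 4276. Signal over background limits LMO2, LYL1 and the other probe sets below log2 5, where a change cannot be read.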

Other observations

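Genes of T-cell identity stood beside the factors as a wider list. Of 33 genes 18 were tested, and at 1 h 2 fell and 0 rose, with a median change of 0.04, where 28.4% of all tested probe sets were called and their median was -0.03. The 2 were ALDH1A2, a gene that TAL1 activates in T-cell leukaemia (-0.80, limma adjusted p = 0.00536), and DNTT, the terminal transferase of immature lymphocytes (-0.64, adjusted p = 0.0328). With equal array medians 6 rose and 1 fell, where 32.5% of all tested probe sets were higher and 19.5% lower. DNTT was then not called (-0.36, adjusted p = 0.0749). At 6 h 4 fell and 2 rose, where 21.6% of all tested probe sets were lower and 4.07% higher: ALDH1A2 (-0.88), the thymocyte antigens CD1A (-0.76) and CD1E (-0.74) and the chemokine receptor CXCR4 (-0.50) fell, and CD6 (0.48) and the kinase ZAP70 (0.46) rose. With equal array medians 2 fell and 3 rose at 6 h, where 14.1% of all tested probe sets were lower and 14.3% higher. CD1A (-0.51, adjusted p = 0.0522) and CXCR4 (-0.26, 0.16) were then not called. CD3D of the T-cell receptor complex differed from 0 h by 0.07 at 1 h and 0.09 at 6 h, and PTCRA, the pre-T-cell receptor chain, by 0.07 and 0.19; none was called. IL7R (mean level 2.34) and RAG1 (3.93) lay below the filter.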
